A study of Mus musculus with 12 samples.

Results

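The transcripts of metallothioneins and zinc transporters were examined in isolated pancreatic islets of mice that differ in Wfs1, the gene mutated in Wolfram syndrome, which encodes a transmembrane protein of the endoplasmic reticulum. The set was chosen by gene symbol and comprised 10 of the 24078 entries in the islet expression table, namely the metallothioneins Mt1 and Mt2, the zinc exporters Slc30a1, Slc30a2, Slc30a5 and Slc30a7, and the zinc importers Slc39a6, Slc39a7, Slc39a10 and Slc39a14. All 10 were present and all 10 passed the minimum level for testing. Islets came from 3 genotypes with 4 animals each: wild-type mice (WT), heterozygotes (Wfs1HZ) and homozygotes (Wfs1KO) for the Wfs1tm1Koks allele, all of them male F2 hybrids of 129S6/SvEvTac and C57BL/6 aged 5 to 6 months. In this constitutive allele a LacZ cassette takes the place of most of exon 8, and a truncated WFS1 fused to LacZ is still made, so that Wfs1KO denotes loss of most of the protein in every tissue rather than a full deletion. Each library was prepared from the islets of 1 animal, which had been freed by collagenase and picked by hand into medium with 4.5 g/L glucose. The paper describes overnight culture before the insulin secretion assay. It does not say whether the islets taken for RNA were cultured as well. For amplification 10 ng of total RNA was used. The comparison asks whether the transcripts that store and move zinc differ with Wfs1 dose.

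Beta cells hold more zinc than almost any other cell, since insulin is stored in its granules as a crystal with zinc. Proteins of the SLC30 (ZnT) family carry zinc out of the cytosol, across the plasma membrane or into organelles, and proteins of the SLC39 (ZIP) family carry it into the cytosol from outside the cell or from organelles. Metallothioneins are small cysteine-rich proteins that bind zinc in the cytosol. The transcription factor MTF-1 is activated by zinc and binds metal response elements in the promoters of Mt1, Mt2 and Slc30a1, which rise when zinc is plentiful, whereas Slc39a10 is known to be repressed under the same condition. Glucocorticoids and oxidative stress also raise metallothionein transcripts.

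Because Mt1 and Mt2 are adjacent and share this control, the promoter windows of the zinc-induced genes are shown first. Each RefSeq window (GRCm38.p6, forward strand, 5′ to 3′) runs from 250 bases before to 50 bases after the annotated start of the gene, at chr8:94178839-94179138 for Mt1, chr8:94172368-94172667 for Mt2 and chr1:191906531-191906830 for Slc30a1. Capitals mark matches to the core of the metal response element, searched as TGCACNC or TGCGCNC on both strands, so that a match on the reverse strand is seen as GNGTGCA or GNGCGCA. The start that RefSeq gives for Mt1 may lie upstream of the one in common use, so part of its proximal promoter may be outside the window. For Mt2 the start used (94172618) lies upstream of the start in the gene coordinates below (94172664), so its window ends just inside the gene. Counts of matches are therefore not compared between genes.
Mt1: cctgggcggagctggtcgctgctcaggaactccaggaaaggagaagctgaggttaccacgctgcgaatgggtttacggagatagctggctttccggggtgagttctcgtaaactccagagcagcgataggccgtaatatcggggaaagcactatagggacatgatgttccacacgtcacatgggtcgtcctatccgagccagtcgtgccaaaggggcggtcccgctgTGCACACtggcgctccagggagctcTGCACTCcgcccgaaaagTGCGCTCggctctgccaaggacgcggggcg
Mt2: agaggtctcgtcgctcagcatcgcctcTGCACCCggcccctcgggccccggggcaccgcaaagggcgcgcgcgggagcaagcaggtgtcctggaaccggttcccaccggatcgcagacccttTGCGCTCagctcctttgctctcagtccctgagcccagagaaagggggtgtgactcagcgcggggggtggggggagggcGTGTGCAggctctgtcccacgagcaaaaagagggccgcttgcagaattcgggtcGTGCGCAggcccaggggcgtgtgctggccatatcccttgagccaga
Slc30a1: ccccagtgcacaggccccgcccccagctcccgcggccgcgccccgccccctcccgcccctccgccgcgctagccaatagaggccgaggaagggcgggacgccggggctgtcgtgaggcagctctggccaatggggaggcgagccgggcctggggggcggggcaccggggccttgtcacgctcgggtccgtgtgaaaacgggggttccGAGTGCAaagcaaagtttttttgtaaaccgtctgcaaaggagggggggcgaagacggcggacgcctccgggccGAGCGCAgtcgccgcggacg
The Mt1 window held 3 matches, the Mt2 window 4 and the Slc30a1 window 2. Of 32851 promoter windows of the same length, 25.7% held at least 1 match, 7.11% at least 2, 1.97% at least 3 and 0.517% at least 4. Slc30a2 also had 2 matches and Slc30a5 had 1, while the windows of Slc30a7, Slc39a7 and Slc39a10 had 0. Sequences were matched for 8 of the 10 genes, and those of Slc39a6 and Slc39a14 were not. A match to these letters is a description of the window and not evidence of binding. The genes themselves lie on the forward strand at chr8:94179082-94180327 for Mt1, chr8:94172664-94173568 for Mt2 and chr1:191906767-191913247 for Slc30a1, and both metallothionein genes are protein coding, with exons of 549 bases (Mt1) and 511 bases (Mt2) in all.

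Expression was measured by RNA-seq and is given as RPKM, read numbers divided by transcript length and library size, so that levels can be set side by side between genes of different length. The number of reads behind the RPKM values, recovered from the steps between low values, ranged from 2166000 in Wfs1HZ replicate 2 to 9499000 in Wfs1KO replicate 1. Wfs1 itself, used to check the labels, was 28.6 ± 3.83 RPKM in WT, 11.1 ± 5.59 in Wfs1HZ and 4.40 ± 1.83 in Wfs1KO (SD, n = 4), and no animal of either mutant genotype reached the WT range. Wfs1HZ replicate 2, at 4.69 RPKM, lay within the Wfs1KO range (2.45 to 6.61 RPKM). The check therefore does not separate Wfs1HZ from Wfs1KO in every animal. The islet hormones Ins1 and Gcg were abundant in every library, whereas the beta cell factor Mafa was near 0 (0 to 0.35 RPKM). RNA of acinar cells, the exocrine cells that surround islets, varied most: the summed level of 11 acinar transcripts was 8534 RPKM in Wfs1KO replicate 4 and 9107 RPKM in Wfs1HZ replicate 2, against 53809 to 307240 RPKM in the other 10 animals. Wfs1HZ replicate 2 also stood apart in its correlation with the other libraries (median Spearman rho 0.86, against 0.90 to 0.93). In such bulk samples, fewer cells of a type and less RNA per cell cannot be told apart.

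The 10 genes differed widely in abundance. Over all 12 animals the mean level was 677 RPKM for Mt2 and 288 RPKM for Mt1, and in every library each of these genes was above at least 98.8% of all transcripts. The transporters followed at 22.6 RPKM for Slc39a7, 19.9 for Slc30a1, 15.8 for Slc30a5, 15.7 for Slc39a6, 8.63 for Slc30a7, 8.10 for Slc39a14 and 6.29 for Slc39a10, and Slc30a2 was last at 1.04 RPKM. Neighbours in this order were compared animal by animal with an exact two-sided sign-flip test on the log2 ratio, adjusted by Benjamini-Hochberg over the 9 neighbouring pairs. The pairs were set by the means of the same 12 animals. These p-values are therefore descriptive and do not test an order fixed beforehand. Mt2 exceeded Mt1 and Mt1 exceeded Slc39a7 in 12 of 12 animals (exact adjusted p = 0.0015 for both), Slc39a6 exceeded Slc30a7 in 12 of 12 (exact adjusted p = 0.0015), and Slc39a10 exceeded Slc30a2 in 11 of 12 (exact adjusted p = 0.0022). The other 5 neighbouring pairs did not pass, among them Slc39a7 and Slc30a1 (exact adjusted p = 0.36) and Slc30a5 and Slc39a6 (exact adjusted p = 0.62).

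**Figure D1:**
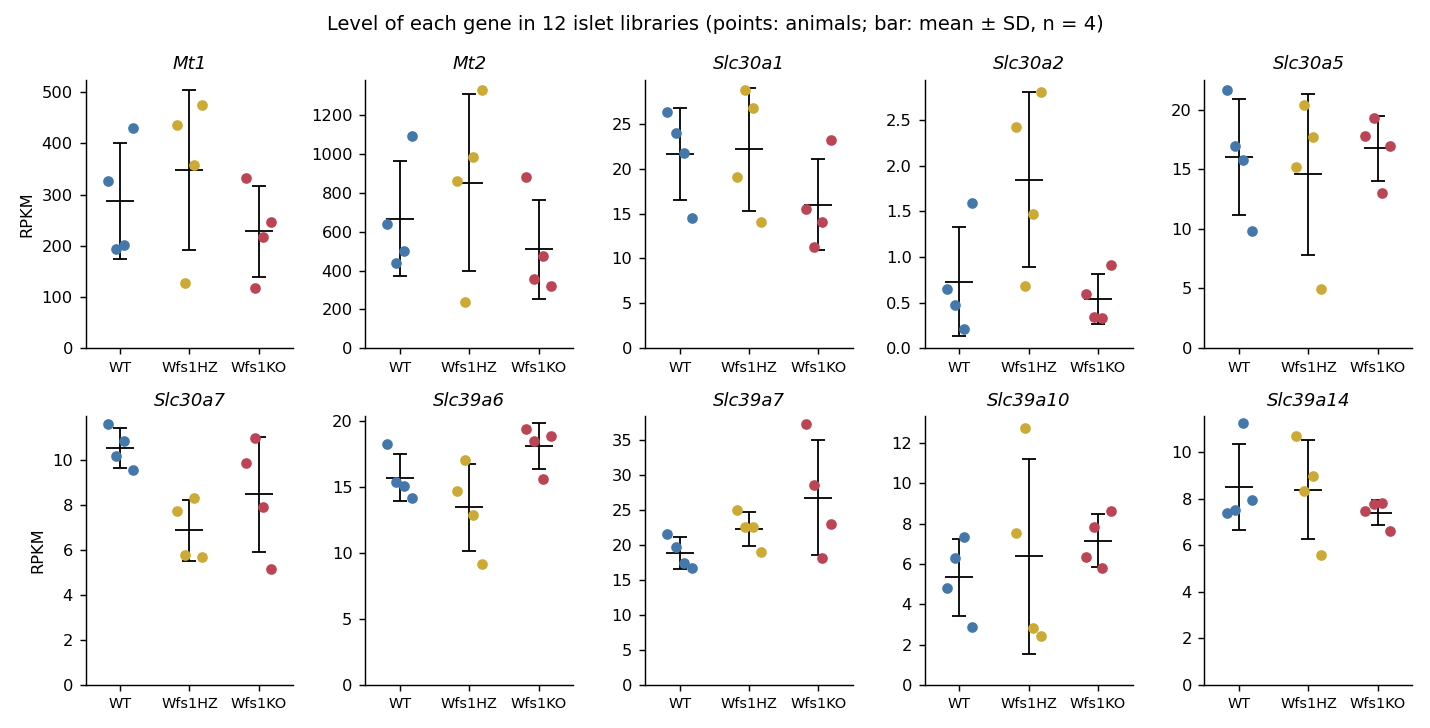
Level of the 10 genes (RPKM, linear axis from 0, a separate scale for each gene) in WT, Wfs1HZ and Wfs1KO islets. Points are animals, and the bar and whiskers are the mean ± SD (n = 4). Slc30a7 is the gene with no overlap between a pair of genotypes, at 5.67 to 8.30 RPKM in Wfs1HZ and 9.54 to 11.6 RPKM in WT.

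None of the 10 genes differed between genotypes at an adjusted p under 0.05. Genotypes were compared pair by pair with limma on log2(RPKM + 0.1), with p-values adjusted by Benjamini-Hochberg over the 21701 transcripts tested, and the fold changes below are on that scale. Between Wfs1KO and WT, 4 of the 10 were higher and 6 lower in Wfs1KO, with a median log2 difference of -0.19 beside 0.07 for all transcripts tested, and the lowest adjusted p was 0.88. No member had even an unadjusted p under 0.05 in that comparison, where 5.64% of all transcripts did, 0.0138% passed the adjusted threshold and 2.74% had values that did not overlap between the genotypes. Between Wfs1KO and Wfs1HZ, 5 were higher and 5 lower (median 0.04, as for all transcripts tested), and 1 member, Slc30a2, had an unadjusted p under 0.05, beside 2.45% of all transcripts. In that comparison 0.0% of transcripts (0 of 21701) passed the adjusted threshold of limma, 532 had an unadjusted p under 0.05, and 1.43% did not overlap. Between Wfs1HZ and WT, 6 were higher and 4 lower (median 0.01 beside 0.04), and 1 member, Slc30a7, had an unadjusted p under 0.05, beside 2.35% of all transcripts. Here too 0.0% passed the adjusted threshold of limma, with 511 transcripts under an unadjusted p of 0.05, and 1.66% did not overlap. The comparisons with Wfs1KO share the Wfs1KO animals and those with WT share the WT animals, so that their values for a gene are not independent. With 4 animals against 4, the smallest exact permutation p is 0.029.

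**Figure D2:**
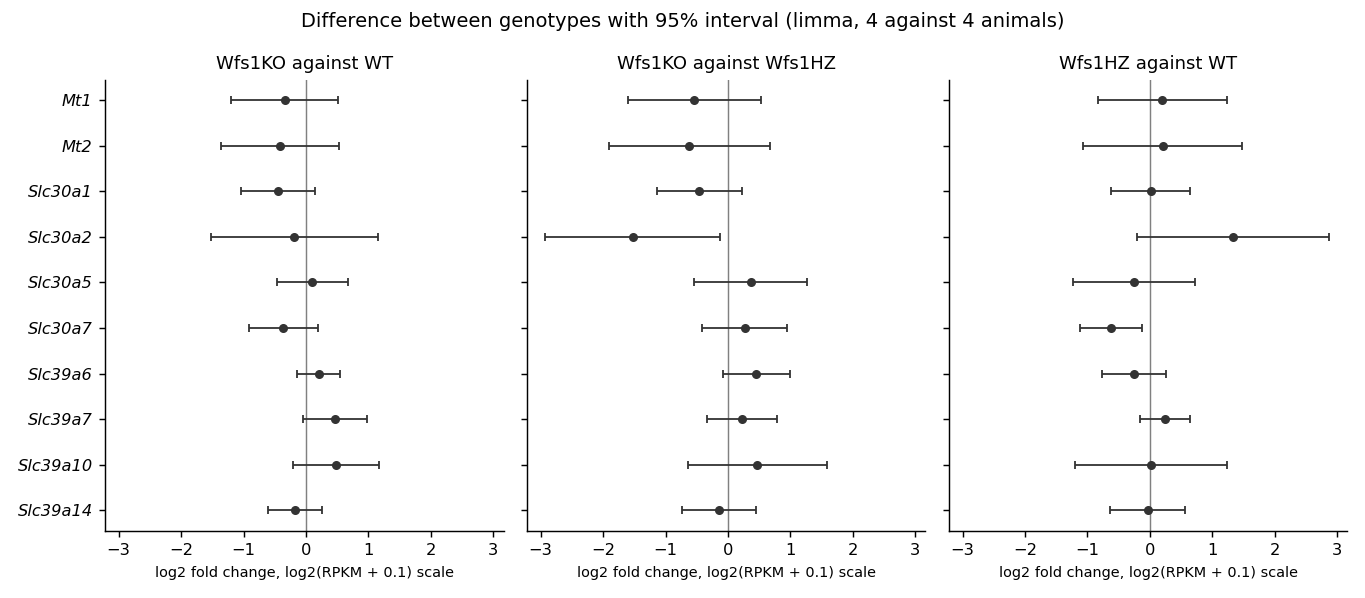
Log2 fold change of the 10 genes on the log2(RPKM + 0.1) scale in the 3 comparisons, with the 95% interval from limma (4 against 4 animals). The intervals of Slc30a2 in Wfs1KO against Wfs1HZ (-2.92 to -0.13) and of Slc30a7 in Wfs1HZ against WT (-1.12 to -0.13) lie below 0, and those of the other genes and comparisons include 0.

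Mt2 was the most abundant member and also one of the most variable. Its level was 640, 437, 500 and 1094 RPKM in the WT animals, 861, 240, 984 and 1329 RPKM in the Wfs1HZ animals and 881, 359, 477 and 323 RPKM in the Wfs1KO animals. The genotypes overlapped widely, with the highest and the lowest value of the series both in Wfs1HZ. The mean was 668 ± 297 RPKM in WT, 853 ± 454 in Wfs1HZ and 510 ± 256 in Wfs1KO (SD, n = 4). The log2 difference was -0.41 between Wfs1KO and WT (95% interval -1.36 to 0.53), -0.62 between Wfs1KO and Wfs1HZ (-1.91 to 0.68) and 0.21 between Wfs1HZ and WT (-1.07 to 1.48). Each interval reached beyond 1 log2 unit in at least 1 direction, which is the error that the spread between animals leaves on Mt2.

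Mt1, which like Mt2 is made in most tissues, showed a similar arrangement of animals. It stood at 326, 193, 200.5 and 430.0 RPKM in WT, at 435, 126, 358 and 476 RPKM in Wfs1HZ and at 333, 117, 218 and 246 RPKM in Wfs1KO. As for Mt2, WT replicate 4 and Wfs1HZ replicate 4 were high and Wfs1HZ replicate 2 was low, and the genotypes overlapped. Mean levels were 287 ± 113 RPKM in WT, 349 ± 156 in Wfs1HZ and 229 ± 89.0 in Wfs1KO (SD, n = 4). Log2 differences for Mt1 were -0.34 between Wfs1KO and WT (95% interval -1.20 to 0.52), -0.54 between Wfs1KO and Wfs1HZ (-1.61 to 0.53) and 0.20 between Wfs1HZ and WT (-0.84 to 1.23). Without Wfs1HZ replicate 2 the Wfs1KO against Wfs1HZ values became -0.97 for Mt1 and -1.15 for Mt2, each with an unadjusted limma p of 0.037 and an adjusted p of 0.81, while the median of all transcripts moved from 0.04 to 0.28.

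The metallothioneins varied together from animal to animal. Over the 12 animals log2 Mt1 and log2 Mt2 had Pearson's r = 0.90 (permutation p = 8e-05) and Spearman's rho = 0.87 (permutation p = 0.00045). The relation was as close for deviations from the genotype means (r = 0.89), after median-of-ratios scaling (r = 0.94) and without the 2 animals farthest from the median of Mt1, Wfs1HZ replicate 2 and Wfs1KO replicate 2 (r = 0.88, permutation p = 0.0015). The ratio of Mt2 to Mt1, which does not depend on how a library is scaled, lay between 1.31 in Wfs1KO replicate 4 and 3.06 in Wfs1KO replicate 2. On the log2 scale it was 1.21 ± 0.17 in WT, 1.21 ± 0.30 in Wfs1HZ and 1.13 ± 0.53 in Wfs1KO (SD, n = 4). No pair of genotypes differed in this ratio by the exact two-sided permutation test (exact p = 0.89, 0.91 and 0.97, adjusted p = 0.97 for all 3).

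**Figure D3:**
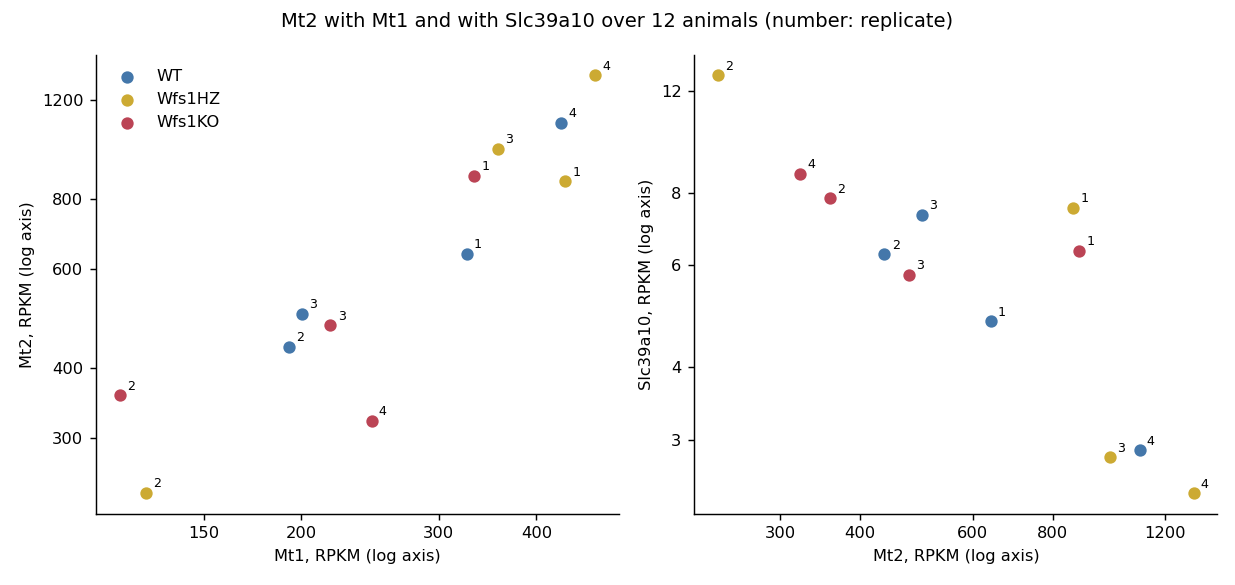
Left, Mt2 against Mt1, and right, Slc39a10 against Mt2, in 12 animals (RPKM, log axes; colour gives the genotype and the number the replicate). The metallothioneins rank the animals alike (r = 0.90), and Slc39a10 is low where Mt2 is high (r = -0.85), with Wfs1HZ replicate 2 at one end and Wfs1HZ replicate 4 at the other.

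Of the plasma membrane exporters, Slc30a1 (ZnT1) is the one that most cells use to shed zinc. It measured 26.3, 23.99, 21.8 and 14.5 RPKM in WT, 19.1, 28.8, 26.8 and 14.0 RPKM in Wfs1HZ and 15.5, 11.2, 14.1 and 23.2 RPKM in Wfs1KO. Wfs1KO replicates 1 to 3 were at or below 15.5 RPKM, as was replicate 4 of WT and of Wfs1HZ, and the genotypes overlapped. The log2 difference between Wfs1KO and WT was -0.45 (95% interval -1.05 to 0.15, exact permutation p = 0.20), and that between Wfs1KO and Wfs1HZ was -0.46 (-1.14 to 0.22). Without Wfs1KO replicate 4 the former was -0.64 (limma, adjusted p = 0.53), and without WT replicate 4 it was -0.63 (limma, adjusted p = 0.94), both with an unadjusted p under 0.05. Between Wfs1HZ and WT the difference was 0.01 (-0.62 to 0.65). Slc30a1 shares the metal response element core with the metallothioneins, but over the 12 animals its level had r = -0.08 with Mt1 and r = -0.30 with Mt2, neither of which passed a permutation test (adjusted p = 0.88 and 0.59 over 45 pairs). After median-of-ratios scaling the sign of both turned, to r = 0.27 with Mt1 and r = 0.15 with Mt2.

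Slc30a2 (ZnT2), which loads zinc into vesicles of secretory epithelia such as the acinar pancreas and mammary gland, was near the detection limit. Values were 0.65, 0.47, 0.21 and 1.59 RPKM in WT, 2.43, 0.68, 1.47 and 2.81 RPKM in Wfs1HZ and 0.59, 0.34, 0.33 and 0.91 RPKM in Wfs1KO. Depending on the library these correspond to about 1.9 to 43.9 reads. In 3 of the 4 Wfs1HZ animals it was above every Wfs1KO animal, while Wfs1HZ replicate 2 was within the Wfs1KO range. The log2 difference between Wfs1KO and Wfs1HZ was -1.52 (95% interval -2.92 to -0.13), with an unadjusted limma p of 0.036, an adjusted p of 1.0 and an exact permutation p of 0.057. It was -0.83 with a pseudocount of 1 and -2.16 without the 2 animals lowest in acinar RNA (limma, adjusted p = 0.48). Between Wfs1HZ and WT it was 1.33 (-0.21 to 2.87), and between Wfs1KO and WT -0.19 (-1.53 to 1.15). The level of Slc30a2 had r = 0.03 with that of the acinar markers over the 12 animals (permutation p = 0.93).

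Slc30a5 (ZnT5) and Slc30a7 (ZnT7) carry zinc into the early secretory pathway, where it is handed to zinc-dependent enzymes. Slc30a7 was 11.6, 10.2, 10.8 and 9.54 RPKM in WT, 7.74, 5.76, 8.30 and 5.67 RPKM in Wfs1HZ and 9.88, 10.98, 7.92 and 5.14 RPKM in Wfs1KO. Every Wfs1HZ animal was below every WT animal, where 1.66% of all transcripts did not overlap, while the Wfs1KO animals spanned both ranges. The log2 difference between Wfs1HZ and WT was -0.63 (95% interval -1.12 to -0.13), with an unadjusted limma p of 0.018, an adjusted p of 1.0 and an exact permutation p of 0.029, the smallest possible. It lay between -0.72 and -0.54 in all 17 fits of this comparison, the alternatives included, each with an unadjusted p under 0.05 and an adjusted p of 0.82 or more. Between Wfs1KO and WT the difference was -0.36 (-0.92 to 0.19), and between Wfs1KO and Wfs1HZ 0.27 (-0.41 to 0.94), so that the Wfs1KO mean lay between the others.

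Slc30a5 was 16.04 ± 4.88 RPKM in WT, 14.6 ± 6.73 in Wfs1HZ and 16.7 ± 2.69 in Wfs1KO (SD, n = 4). Its lowest values were 9.79 RPKM in WT replicate 4 and 4.99 RPKM in Wfs1HZ replicate 4, which are the animals with the highest Mt2. The log2 differences were 0.10 (95% interval -0.47 to 0.67) between Wfs1KO and WT, 0.36 (-0.54 to 1.27) between Wfs1KO and Wfs1HZ and -0.26 (-1.24 to 0.72) between Wfs1HZ and WT.

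Among the importers, Slc39a7 (ZIP7) releases zinc from the endoplasmic reticulum and Golgi, the compartment in which WFS1 resides. It was 21.5, 19.7, 17.4 and 16.6 RPKM in WT, 25.0, 22.5, 22.5 and 19.0 RPKM in Wfs1HZ and 37.3, 28.6, 18.1 and 23.0 RPKM in Wfs1KO. In 3 of the 4 animals of each mutant genotype it was above the highest WT animal. The remaining ones, Wfs1HZ replicate 4 and Wfs1KO replicate 3, were the animals richest in acinar RNA. The factors by which median-of-ratios scaling divides their values, 0.64 and 0.81, were also the lowest of the 12 libraries. The part of library scaling in their low Slc39a7 was not tested. The log2 difference was 0.46 between Wfs1KO and WT (95% interval -0.06 to 0.98, unadjusted limma p = 0.074, exact permutation p = 0.11), 0.24 between Wfs1HZ and WT (-0.16 to 0.65) and 0.22 between Wfs1KO and Wfs1HZ (-0.34 to 0.78). Without Wfs1KO replicate 3 the first of these was 0.63 (limma, adjusted p = 0.75), with an unadjusted p under 0.05. Over the 12 animals Slc39a7 had r = -0.20 with the acinar marker level (permutation p = 0.53), and with that level as a covariate the Wfs1KO against WT difference was 0.45.

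Slc39a6 (ZIP6) brings zinc in across the plasma membrane and forms a complex with ZIP10. It was 18.2, 15.4, 15.1 and 14.2 RPKM in WT, 14.7, 17.0, 12.9 and 9.12 RPKM in Wfs1HZ and 19.4, 18.5, 15.6 and 18.9 RPKM in Wfs1KO. Wfs1KO replicates 1, 2 and 4 were above all 8 animals of the other genotypes, and Wfs1KO replicate 3 was within their range. The log2 difference was 0.20 between Wfs1KO and WT (95% interval -0.14 to 0.55, exact permutation p = 0.057), 0.46 between Wfs1KO and Wfs1HZ (-0.08 to 1.00, exact permutation p = 0.057) and -0.25 between Wfs1HZ and WT (-0.77 to 0.26).

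Slc39a10 (ZIP10), the importer whose transcript zinc represses, was 4.81, 6.28, 7.34 and 2.88 RPKM in WT, 7.55, 12.8, 2.80 and 2.43 RPKM in Wfs1HZ and 6.36, 7.84, 5.78 and 8.63 RPKM in Wfs1KO. Wfs1HZ held both the highest animal, replicate 2, and the lowest, replicate 4, and no genotypes were separated. These libraries also had the highest (1.39) and the lowest (0.64) factor of median-of-ratios scaling. The log2 difference was 0.48 between Wfs1KO and WT (95% interval -0.21 to 1.17), 0.47 between Wfs1KO and Wfs1HZ (-0.65 to 1.58) and 0.01 between Wfs1HZ and WT (-1.20 to 1.23).

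Slc39a14 (ZIP14), which also takes up iron and manganese, was the least different between genotypes, at 8.51 ± 1.84 RPKM in WT, 8.39 ± 2.12 in Wfs1HZ and 7.41 ± 0.56 in Wfs1KO (SD, n = 4). The log2 differences were -0.18 (95% interval -0.62 to 0.26) between Wfs1KO and WT, -0.14 (-0.74 to 0.45) between Wfs1KO and Wfs1HZ and -0.04 (-0.63 to 0.56) between Wfs1HZ and WT. WT replicate 3 was at 11.3 RPKM, and the other 3 WT animals were at 7.37 to 7.93 RPKM.

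The set divided into steady and variable transcripts. The pooled SD within genotypes on the log2 scale was 0.25 for Slc39a6, 0.29 for Slc39a14, 0.29 for Slc39a7 and 0.33 for Slc30a7. Of the 13357 transcripts averaging 1 RPKM or more, between 3.53% and 13.4% had a smaller SD than these 4. At the other end were Slc30a2 (0.84), Mt2 (0.81), Slc39a10 (0.75), Mt1 (0.71) and Slc30a5 (0.61). The SD of Mt2 exceeded that of 78.6% of these transcripts, and its highest and lowest animals differed 5.54-fold. Slc30a1, at 0.43, lay between. For each of Mt1, Mt2, Slc30a5, Slc39a10 and Slc39a14 the SD within genotypes was larger than the widest difference between genotype means.

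Of the 45 pairs of members, 2 had both r and rho past an adjusted p of 0.05 over the 12 animals, Mt1 with Mt2 and Mt2 with Slc39a10. Slc39a10 was low where Mt2 was high, with r = -0.85 (permutation p = 0.00035, adjusted p = 0.0079) and rho = -0.83 (permutation p = 0.0017, adjusted p = 0.038). The relation was r = -0.72 without the 2 animals farthest from the median of Mt2, and -0.78 after median-of-ratios scaling. Mt1 with Slc39a10 gave r = -0.73 (permutation p = 0.0082, adjusted p = 0.062) and rho = -0.62 (adjusted p = 0.21), and Mt1 with Slc30a2 gave r = 0.76 (adjusted p = 0.054) and rho = 0.78 (adjusted p = 0.061). Slc30a5 with Slc39a6 reached r = 0.84 (adjusted p = 0.054), but this fell to 0.43 without 2 animals and to 0.23 after median-of-ratios scaling. These pairs were looked at after the values had been seen.

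Mt2 also moved with the RNA of other islet genes. Its level had r = 0.81 (permutation p = 0.0016, adjusted p = 0.033 over 20 relations) and rho = 0.86 (permutation p = 0.00062, adjusted p = 0.012) with the mean log2 level of 9 beta cell markers, and r = 0.82 as deviations from the genotype means. Without the 2 animals farthest from the median of that level, WT replicate 2 and Wfs1HZ replicate 2, r was 0.70. For Mt1 the corresponding values were r = 0.67 (adjusted p = 0.11) and rho = 0.71 (adjusted p = 0.078), and for Slc39a10 they were r = -0.75 (adjusted p = 0.054) and rho = -0.73 (adjusted p = 0.078). With the mean log2 level of the acinar markers Mt2 had r = 0.64 (adjusted p = 0.11), which became 0.19 without the 2 animals lowest in acinar RNA, and Slc30a1 had r = -0.58 (adjusted p = 0.17). All values are shares of the same libraries, and the part of cell composition in the metallothionein levels was not tested.

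**Figure D4:**
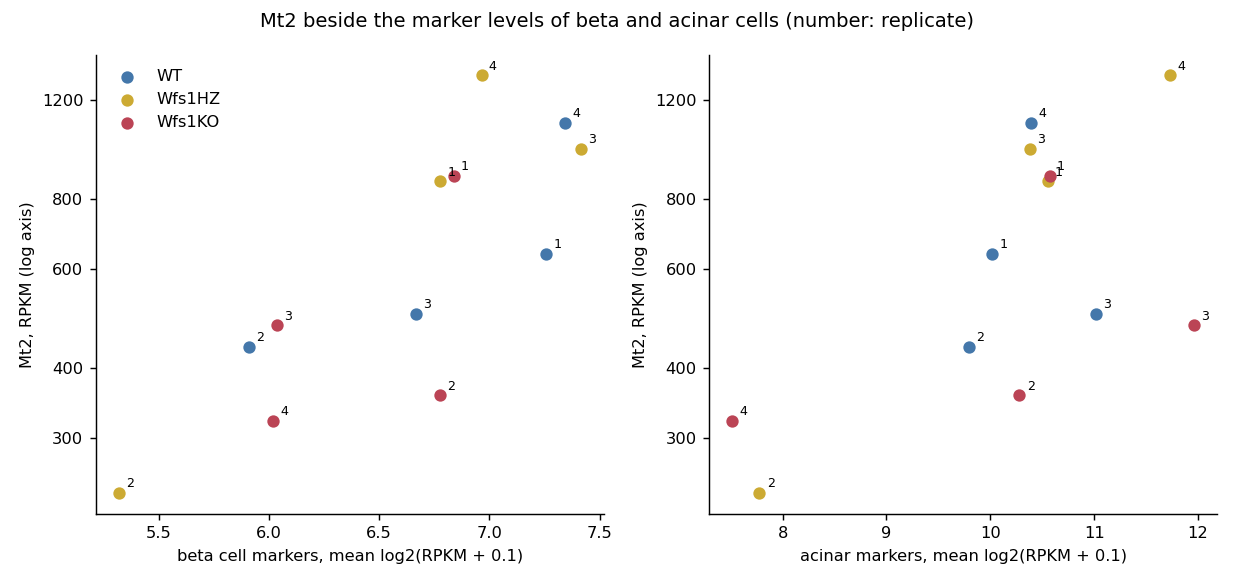
Mt2 (RPKM, log axis) against the mean log2(RPKM + 0.1) of beta cell markers (left) and acinar markers (right) in 12 animals (colour gives the genotype and the number the replicate). Mt2 is higher where beta cell markers are higher (r = 0.81), and on the right 2 animals with little acinar RNA, Wfs1HZ replicate 2 and Wfs1KO replicate 4, lie apart from the other 10.

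From the same 13357 transcripts, the members and the 20 other zinc genes read below were left out. The one then ranked most like Mt1 over the 12 animals was Dbi, which encodes an acyl-CoA binding protein (rho = 0.91, 53.9 to 163 RPKM). It was followed by Krt18, a keratin (rho = 0.83), 2410002I01Rik and the acinar transcription factor Ptf1a (rho = 0.80 for both) and the actin Actg1 (rho = 0.78). Of these, 2410002I01Rik (0.33 to 2.85 RPKM) and Ptf1a (0.11 to 6.2 RPKM) were near the detection limit in their lowest animals. Most like Mt2 were the insulin gene Ins1, Plekhn1, Prss53 and Tmem90a (rho = 0.86 for all 4) and Krt18 (rho = 0.85). Ins1 itself ranged from 4981 to 91587 RPKM across animals. Apart from the zinc genes left out, these transcripts are the highest of 13357 correlations over 12 animals. Whether they exceed what chance gives was not tested.

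The other genes of zinc handling were read from a list of 20, made up of the remaining metallothioneins, transporters of both families, the vesicular zinc transporter Tmem163 and Mtf1. None passed the adjusted threshold in any comparison, beside the background shares given above. Between Wfs1KO and WT, 9 were higher and 11 lower (median log2 difference -0.01 beside 0.07 for all transcripts tested), with an unadjusted p under 0.05 for 1 that was higher and 2 that were lower. Between Wfs1KO and Wfs1HZ, 13 were higher and 7 lower (median 0.20), with 1 such transcript, and between Wfs1HZ and WT 5 were higher and 15 lower (median -0.14), also with 1. Mtf1, which encodes the zinc sensor, was among the steadiest transcripts (SD within genotypes 0.25) at 9.92 RPKM over all animals, and its log2 difference between Wfs1KO and WT was -0.17 (95% interval -0.57 to 0.24). The brain and epithelial metallothioneins Mt3 and Mt4 were at 0 to 0.64 and 0 to 0.96 RPKM, that is at most about 2.0 reads in a library.

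Slc30a8 (ZnT8), which loads zinc into insulin granules, had the highest mean level of the zinc transporters read here (51.4 RPKM over the 12 animals). It was 76.3, 69.1, 70 and 37.2 RPKM in WT, 48.3, 47.3, 134 and 33.8 RPKM in Wfs1HZ and 13.3, 17.3, 16.4 and 53.9 RPKM in Wfs1KO. Of the Wfs1KO animals 3 were below all 8 others, whereas Wfs1KO replicate 4 lay within the WT range, so that the genotypes overlapped. The log2 difference was -1.51 between Wfs1KO and WT (95% interval -2.49 to -0.53, unadjusted limma p = 0.0067, adjusted p = 0.84, exact permutation p = 0.057) and -1.41 between Wfs1KO and Wfs1HZ (-2.54 to -0.28, unadjusted limma p = 0.019, adjusted p = 1.0). Against Wfs1HZ the exact permutation p was 0.11. Without Wfs1KO replicate 4 the difference was -1.96 against WT, and without Wfs1HZ replicate 3 it was -0.998 against Wfs1HZ. The unadjusted limma p against Wfs1HZ was above 0.05 without Wfs1HZ replicate 3 or without Wfs1KO replicate 1, 2 or 3. Between Wfs1HZ and WT the difference was -0.10 (-1.03 to 0.82). Markers of beta cells, the cells that express Slc30a8 most, were read beside it. Their summed level had its lowest, median and highest animal at 32017, 94880 and 179836 RPKM in WT, 12518, 85805 and 137706 RPKM in Wfs1HZ and 22340, 56030 and 91413 RPKM in Wfs1KO. Of the 8 tested, with Mafa under the minimum, 6 were lower in Wfs1KO than in WT and 2 higher. Their median log2 difference was -0.63 beside 0.07 for all transcripts tested. Of the 8, 1, which was lower, had an unadjusted p under 0.05, beside 5.64% of all transcripts. Against Wfs1HZ 4 were lower and 4 higher (median -0.16, beside 0.04). Again 1 was lower at an unadjusted p under 0.05, beside 2.45% of all transcripts. The part of beta cell RNA in the level of Slc30a8 was not tested.

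Slc39a8 (ZIP8), an importer of zinc and manganese, was 4.37, 4.55, 5.70 and 8.08 RPKM in WT and 3.13, 2.57, 3.92 and 1.79 RPKM in Wfs1KO. These values did not overlap, as for 2.74% of all transcripts tested. The log2 difference of Slc39a8 was -0.98 (95% interval -1.68 to -0.27), with an unadjusted limma p of 0.012, an adjusted p of 0.84 and an exact permutation p of 0.029. In Wfs1HZ it ran from 3.15 to 8.24 RPKM, across both ranges. Slc30a10, a manganese exporter, was higher by 1.41 in Wfs1KO than in WT (unadjusted limma p = 0.022, adjusted p = 0.84, exact permutation p = 0.057), at means of 0.51 and 0.11 RPKM. So close to the pseudocount the size depends on it, being 2.07 with a pseudocount of 0.01 and 0.41 with 1. The unadjusted limma p was above 0.05 with all 12 samples in 1 fit (0.072), with the replicate block or without WT replicate 1 or 3. Slc30a6 (ZnT6), the partner of ZnT5 in the early secretory pathway, was 4.50 ± 0.43 RPKM in Wfs1HZ and 7.64 ± 2.84 in WT (SD, n = 4). The animals of these genotypes did not overlap, as for 1.66% of all transcripts tested. For Slc30a6 the log2 difference was -0.69 (95% interval -1.35 to -0.03, unadjusted limma p = 0.042, adjusted p = 1.0, exact permutation p = 0.029). The WT animals were spread widely, from 5.08 to 11.7 RPKM, against 3.93 to 4.85 RPKM in Wfs1HZ, and the interval ended close to 0. The unadjusted limma p of Slc30a6 was above 0.05 with median-of-ratios scaling (0.077), the replicate block (0.058) and no minimum level (0.054). It was also above 0.05 without WT replicate 1, 3 or 4 and without Wfs1HZ replicate 1, 3 or 4, and under 0.05 in the other fits. Without WT replicate 3 the log2 difference was -0.47. Unlike that of Slc30a7, the Slc30a6 difference thus did not keep an unadjusted p under 0.05 in every fit. The mean of Slc30a6 in Wfs1KO (5.31 RPKM) lay between the others, and its difference between Wfs1KO and WT was -0.46 (-1.09 to 0.16).

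**Figure D5:**
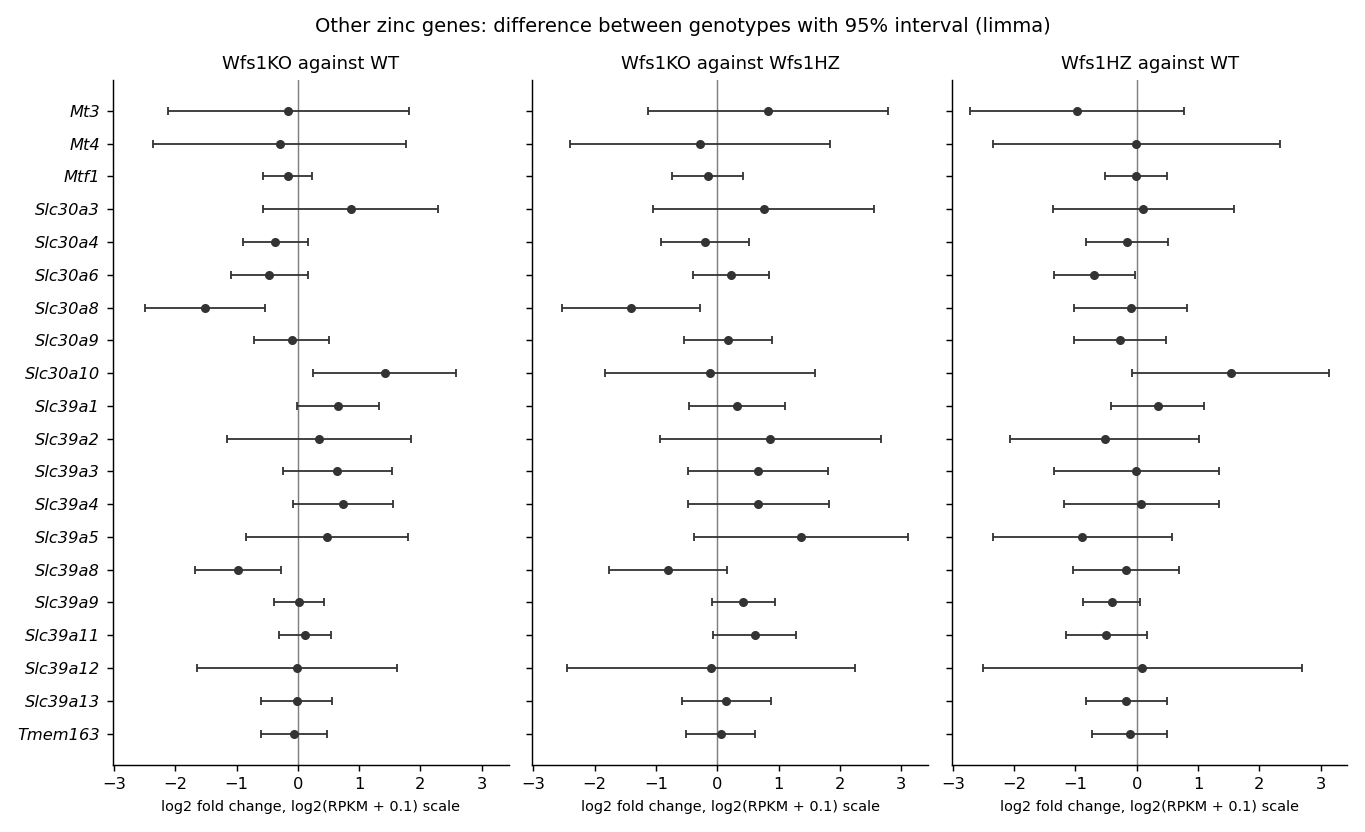
Log2 fold change of 20 other zinc genes on the log2(RPKM + 0.1) scale, with the 95% interval from limma (4 against 4 animals; the same horizontal scale in each panel). Slc30a8 lies at -1.51 against WT and -1.41 against Wfs1HZ, and the wide intervals of Mt3, Mt4 and Slc39a12 belong to transcripts near the detection limit.

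Lists of immediate early and stress genes and of glucocorticoid targets were read beside the metallothioneins. Of 10 immediate early and stress genes, 9 were higher in Wfs1KO than in WT (median log2 difference 0.58, with 2 at an unadjusted p under 0.05) and 9 were higher in Wfs1HZ than in WT (median 0.65, with 3). Of 5 glucocorticoid targets, 4 were higher in Wfs1KO than in WT (median 0.30, with 1) and 4 in Wfs1HZ than in WT (median 0.48, with 0). Over all transcripts tested, 5.64% in the first comparison and 2.35% in the second had an unadjusted p under 0.05, and the median differences were 0.07 and 0.04. Between Wfs1KO and Wfs1HZ, 6 of the 10 stress genes (median 0.11) and 1 of the 5 glucocorticoid targets (median -0.25) were higher in Wfs1KO, none with an unadjusted p under 0.05, beside 2.45% of all transcripts. None of these genes passed the adjusted threshold of limma in any of the 3 comparisons. Relative to WT, over the same comparisons the metallothioneins were at -0.34 and -0.41 in Wfs1KO and at 0.20 and 0.21 in Wfs1HZ. The markers of other cells the preparation could hold were also read: 5 of 5 endothelial and 5 of 6 stromal transcripts were higher in Wfs1KO than in WT (medians 0.56 and 1.25), with 1 of each at an unadjusted p under 0.05, and 9 of 11 acinar transcripts were lower (median -0.23). Between Wfs1HZ and WT, 5 of 5 endothelial and 6 of 6 stromal transcripts were higher in Wfs1HZ (medians 0.74 and 0.89), and between Wfs1KO and Wfs1HZ 2 of 5 and 4 of 6 were higher in Wfs1KO (medians -0.05 and 0.14). Their part in the levels of the zinc genes was not tested.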

How the data were processed

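Islet RNA of 12 male mice was amplified (Ovation RNA-Seq V2) and sequenced on a SOLiD 5500xl, 1 library per animal. The authors deposited 1 table of RPKM values per transcript and animal, which they had mapped with LifeScope (mm10 per the labels); the annotation and transcript lengths behind the RPKM are not given in the sources used here. Because RPKM values are not counts, the count test of the study was not repeated. The 21701 of 24078 transcripts that averaged 0.1 RPKM or more were tested pair by pair with limma 3.58.1 (R 4.3.3) on log2(RPKM + 0.1), with a variance trend and Benjamini-Hochberg adjustment. The script was first tested on simulated data. Exact two-sided permutation tests gave single-gene p-values, and correlations used 100000 permutations (scipy 1.17.1). Read numbers were recovered from short genes and cover counting error only.

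All 10 members were named. Other zinc genes were named where listed for that purpose (Slc30a8, Mtf1) or at an unadjusted p under 0.05. For likeness to Mt1 and Mt2, the 5 transcripts with the highest rho outside the members and the other zinc genes were named. The members and lists were chosen with earlier results of these data known. The marker relations, the pairs of members, the order of levels and the fit without the 2 animals lowest in acinar RNA were added after the values were seen. Alternatives were the pseudocount, the minimum level, median-of-ratios scaling, 1 fit of all animals, an acinar covariate, a replicate block and leaving out each animal. Replicate numbers were not treated as pairs in the fits reported (correlation of deviations between animals of the same number from -0.17 to 0.23), and 0 of 10 members were left out.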

Additional observations from a re-analysis of the deposited data

Results flagged for a closer look

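In 3 of the 39 groups of 4 animals looked at (the 10 members, Slc30a8, Mtf1 and the ratio of Mt2 to Mt1, in 3 genotypes), 1 animal stood far from the other 3 by Dixon's test, which chance gives in about 1 of 20 groups. Slc39a14 was 11.3 RPKM in WT replicate 3, against 7.37 to 7.93 RPKM in the other WT animals. Slc30a8 was 134 RPKM in Wfs1HZ replicate 3, against 33.8 to 48.3 RPKM in the other Wfs1HZ animals, and 53.9 RPKM in Wfs1KO replicate 4, against 13.3 to 17.3 RPKM in the other Wfs1KO animals.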

How the results depend on the processing

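No member passed the adjusted threshold under any alternative. The number of transcripts with an adjusted p under 0.05 between Wfs1KO and WT, 3 in the fit reported, was 1 with all 12 samples in 1 fit, 0 with a pseudocount of 1, 0 with the replicate block and 0 to 1 when an animal was left out, and for the other comparisons it was 0 throughout. The fits with a replicate block gave 1091, 395 and 854 transcripts at an unadjusted p under 0.05 for Wfs1KO against WT, Wfs1KO against Wfs1HZ and Wfs1HZ against WT, where the fits reported gave 1225, 532 and 511. The block thus raised the number between Wfs1HZ and WT and lowered it in the other comparisons. By deviations from the genotype means, 3, 1 and 5 of 8 animals in these comparisons correlated best with the animal of their own number. Whether the numbers mark pairs of animals was not tested further.

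For members whose log2 difference changed sign, the cause was not tested. With the acinar covariate, Wfs1HZ against WT became -0.033 for Slc30a1 and -0.082 for Slc39a10, and with scaling it became 0.0096 for Slc39a14. When each animal was left out in turn, Wfs1HZ against WT ran from -0.0069 to 0.63 for Mt1, -0.089 to 0.73 for Mt2, -0.17 to 0.21 for Slc30a1, -0.48 to 0.19 for Slc30a5, -0.42 to 0.36 for Slc39a10 and -0.16 to 0.15 for Slc39a14. Likewise Wfs1KO against WT ran from -0.57 to 0.24 for Slc30a2 and -0.12 to 0.26 for Slc30a5, and Wfs1KO against Wfs1HZ from -0.089 to 0.58 for Slc30a5. The difference in the log2 ratio of Mt2 to Mt1 ran from -0.23 to 0.18 for Wfs1KO against WT, -0.24 to 0.17 for Wfs1KO against Wfs1HZ and -0.082 to 0.10 for Wfs1HZ against WT.

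An unadjusted p under 0.05 came and went with the setting for Slc39a7 in Wfs1KO against WT, which had it with scaling, with the replicate block or without Wfs1KO replicate 3, and for Slc30a2 in Wfs1KO against Wfs1HZ, which lost it with the replicate block, a minimum of 1 RPKM, or without any of 6 of the 8 animals (all but Wfs1HZ replicate 2 and Wfs1KO replicate 4). In Wfs1KO against Wfs1HZ it appeared for Slc30a1 with scaling or without Wfs1HZ replicate 4 and for Slc39a6 with scaling, the acinar covariate or without Wfs1HZ replicate 2, and in Wfs1HZ against WT for Slc30a2 with that covariate, without WT replicate 4 or without Wfs1HZ replicate 2. Depth limits Slc30a2, Slc30a10, Mt3 and Mt4.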
